A study of Mus musculus with 378 samples.

Results

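Pancreatic islets with much insulin RNA were compared with islets with little of it, across all measured genes. The rule standardised the deposited log2 values of Ins1 and Ins2 among libraries with the letter F in the title and among those with the letter M, and averaged both z-scores. The members were thus chosen by measured Ins1 and Ins2 values. The 94 libraries with the highest scores form the high-insulin group and the 94 with the lowest scores the low-insulin group, and the other 190 libraries of the series lie in between. The high-insulin group holds 51 F and 43 M libraries, and the low-insulin group 50 F and 44 M libraries. The letters are read here as female and male. Each library is whole-islet RNA from a different Diversity Outbred mouse, an outbred stock in which every animal carries its own mix of founder genomes. All mice, in both groups, were kept on a diet high in fat and sugar (45% fat), and the labels give no treatment contrast, age, batch or islet number. The groups are therefore a choice made on measured values, and a difference between them is an association across mice.

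Insulin is made by beta cells, the most common cell of the mouse islet. Mice have a pair of insulin genes, Ins2, which resembles the single gene of other mammals, and Ins1, a retrotransposed copy of it. The signal peptide of preproinsulin directs it through the Sec61 channel into the endoplasmic reticulum (ER), where chaperones and oxidoreductases fold proinsulin and form its disulfide bonds. It then passes through the Golgi into granules, where the convertases Pcsk1 and Pcsk2 and the carboxypeptidase Cpe cut it to insulin, which is released by calcium-triggered exocytosis. When folding falls behind, the unfolded protein response raises chaperone and degradation genes, and its PERK branch acts through the transcription factors Atf4 and Ddit3 (CHOP).

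The insulin genes themselves chose the groups, so their values are a description. Ins1 and Ins2 together took 11.04% to 26.1% of all counts in high-insulin libraries (median 16.1%), and 6.70% to 15.6% in low-insulin libraries (median 9.69%). These ranges overlap, also within each letter, with 11.04% to 20.5% against 6.70% to 13.05% in females and 13.68% to 26.1% against 6.996% to 15.6% in males (high-insulin against low-insulin). The lowest score inside the high-insulin group was 0.564 and the next library outside it had 0.549. The highest score inside the low-insulin group was -0.577 and the next outside it had -0.573. Ins1 averaged 0.77 log2 units more in high-insulin than in low-insulin females and 1.04 more in males, and Ins2 0.63 and 0.82 more. The step was thus wider in males. Across all libraries of the series Ins1 and Ins2 went together within letter (Pearson r 0.725, Spearman rho 0.704, a description). The count of either gene was fractional in every library (whole in 0 libraries), so how reads were divided between the loci is uncertain.

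**Figure D1:**
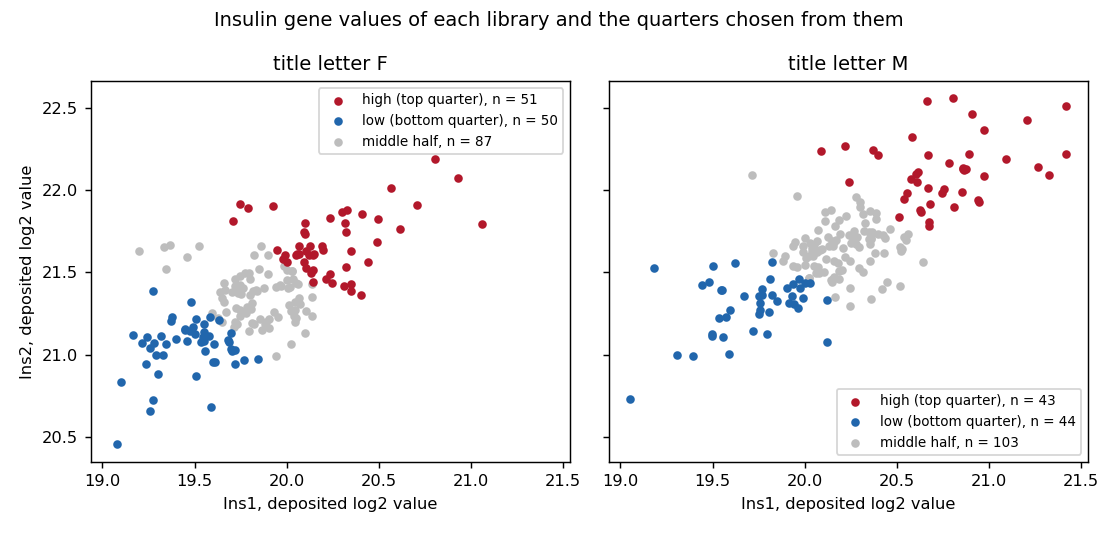
Deposited log2 values of Ins1 (x axis) and Ins2 (y axis), a point per library, for title letter F at left and M at right. High-insulin libraries (51 F, 43 M) lie at the upper right and low-insulin libraries (50 F, 44 M) at the lower left by the way they were chosen.

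The groups were alike in depth, and both held more than beta cells. Total counts had a median of 35.5 M in high-insulin and 34.9 M in low-insulin libraries (difference in mean log2 0.02, permutation p = 0.657, two-sided, 100000 resamples). The labelled tissue fits its defining markers, with Gcg, Sst, Ppy and the beta cell markers above 0 in every library of both groups. Defining markers of pancreatic acinar cells were above 0 in every library too, and the summed level of 34 acinar genes had a median of 4251 CPM (TMM-scaled counts) and a maximum of 83720 CPM in high-insulin libraries, and a median of 4985 CPM and a maximum of 121800 CPM in low-insulin libraries. The T cell marker Cd3e was near 0, with a median of 0.0249 CPM in high-insulin and 0.0288 CPM in low-insulin libraries. Mouse numbers were divided into 4 bands of 100 starting at 21, and bands 1 to 4 gave 20, 22, 29 and 23 high-insulin and 25, 22, 28 and 19 low-insulin libraries. The labels do not say what such a band means.

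Differences were small and spread over much of the transcriptome. Of 16925 genes tested by limma with the letter as covariate, 4452 were higher (26.3%) and 4677 lower (27.6%) in high-insulin libraries at an adjusted p below 0.05. Of these, 76 were higher and 27 lower by 1.5-fold or more. The median gene differed by -0.0045 log2 units, and the values between the 5th and 95th percentile ran from -0.21 to 0.26. These shares are the background for every list that follows, since about a gene in every 4 is called in either direction. Of the called genes, 78.4% had the same sign in females, males and each number band, against 46.9% of all genes tested. The calls came from the same libraries that were then split into these parts. A higher share among called genes is thus partly built in, and the comparison does not test whether the parts agree. In females alone 14.8% were called higher and 14.1% lower, and in males alone 24.1% and 25.2%.

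Transcript length and base composition moved with the groups, and these values belong beside all that follows. The difference between groups went down with transcript length across 16865 genes (Spearman rho -0.251) and up with GC content (rho 0.327), as a description over genes that share libraries. Among 10 bins of equal gene number, the shortest transcripts had a median log2 difference of 0.05 and the longest -0.07, and the GC-richest had 0.09 and the GC-poorest -0.07. The GC relation was 0.306, 0.239, 0.51 and -0.00226 in bands 1 to 4, so it was absent in band 4, whereas the length relation ran from -0.143 to -0.29. The level of Rn18s-rs5, a sequence related to 18S ribosomal RNA in libraries selected for poly(A), was also higher, at 16.05 to 18.76 log2 units in high-insulin libraries (median 17.38), against 15.76 to 17.74 in low-insulin libraries (median 16.55). It was chosen after its values were seen. With an index of short against long transcripts and an index of GC-rich against GC-poor transcripts as covariates (the length and GC indices below), 16.9% of genes were called higher and 15.7% lower, and 4400 of the 9129 calls kept their direction and threshold. What these properties reflect was not tested.

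**Figure D2:**
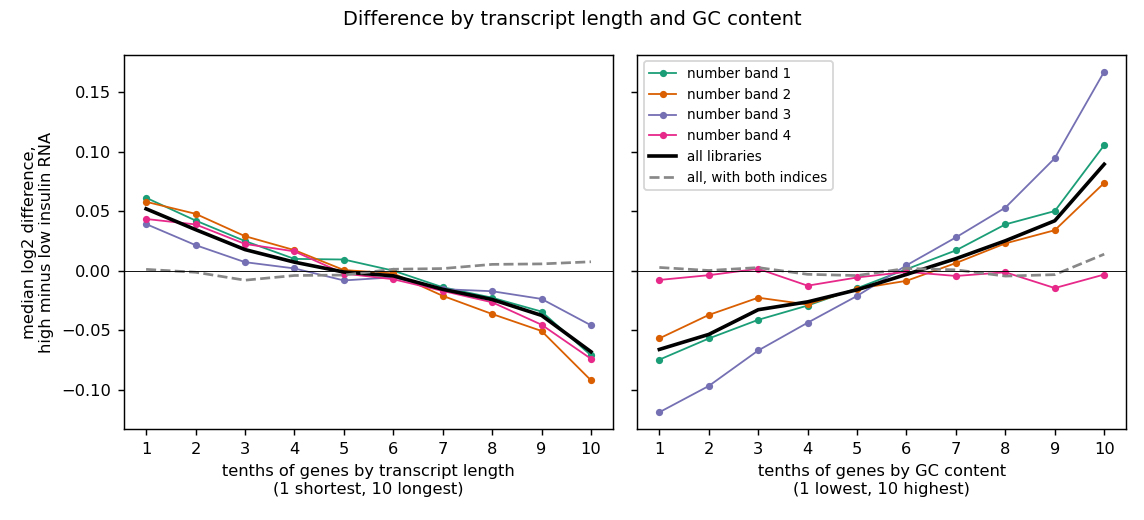
Median log2 difference, high-insulin minus low-insulin libraries (y axis), in 10 bins of genes by transcript length at left and by GC content at right, for each number band, for all libraries (black) and with both indices as covariates (grey dashes). Short and GC-rich genes lie above 0 and long and GC-poor genes below it, with GC content flat in band 4.

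Genes that fold proinsulin and clear misfolded protein in the ER were higher in high-insulin islets. Of 33 list members tested, 25 were higher and 1 lower, with a median log2 difference of 0.13 where all genes had a median of -0.0045. With the length and GC indices 21 were higher and 0 lower (median 0.15), and in females and males the medians were 0.11 and 0.15. With the indices in females alone 11 were higher, where 4.66% of all genes were called higher and 4.3% lower, and in males alone 14, against 15.2% higher and 15.4% lower of all genes. Derl3, a derlin of the ER membrane that takes part in retrotranslocation (ENSMUSG00000009092, chromosome 10, 75893398 to 75895941, GRCm38), had the largest difference of all genes named by the rule. Its deposited log2 value was 7.56 to 11.48 in high-insulin libraries (median 9.10) and 7.04 to 10.15 in low-insulin libraries (median 7.99). The ranges overlap, but 87 of 94 high-insulin libraries exceeded the low-insulin median and only 3 of 94 low-insulin libraries exceeded the high-insulin median. The difference was 1.19 log2 units (SE 0.0953, adjusted p = 1.1e-23), and 1.03 with the length and GC indices. From counts by edgeR, with letter and band as covariates, it was 1.64. The deposited scale compresses low counts, but its part in this gap was not tested.

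Other members followed in smaller steps. Sdf2l1, an ER protein of chaperone complexes, had medians of 11.04 in high-insulin and 10.29 in low-insulin libraries, and 93 of 94 high-insulin libraries lay above the low-insulin median (0.71, SE 0.0585, adjusted p = 7.93e-23). Herpud1, a membrane component of the degradation machinery (chromosome 8, 94386438 to 94395377), ran from 12.10 to 14.07 in high-insulin libraries (median 13.16) and from 11.45 to 13.86 in low-insulin libraries (median 12.40). It rose by 0.61 (SE 0.0619, adjusted p = 5.99e-17), and so did Creld2, an ER-resident disulfide isomerase homolog, by 0.61 (SE 0.0659, adjusted p = 2.67e-15). The abundant chaperones moved little. Hspa5, which encodes the main ER chaperone BiP, had medians of 16.27 and 16.22 in high-insulin and low-insulin libraries and did not pass (0.09, adjusted p = 0.0594), although it passed in females alone (0.14, adjusted p = 0.0406). Xbp1, the transcription factor gene whose mRNA is spliced by Ire1, was at a median of 13.75 in both groups (0.01, adjusted p = 0.606), and unspliced and spliced forms are not separated in gene values. Atf6, the third sensor, was the member that fell (-0.07, adjusted p = 0.00643), and with the length and GC indices its value was 0.04.

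The promoter windows of these genes were searched for a classical form of the ER stress element, and no other spacing of it was searched. RefSeq promoter sequences (GRCm38.p6, 250 bases before to 50 bases after the start) were matched by symbol for 25 genes of the ER list and 24 of the ATF4 and CHOP list. The ER stress element was searched as CCAAT and CCACG with 9 free bases between them on either strand. It occurred in 9 of the 25 ER genes (36%) and in 0 of the 24 others, against 0.119% of all 32851 promoter windows. A gene counts once if any of its windows matched, whereas the share of all windows counts single windows. The letters TTGCATCA, an element bound by dimers of ATF4 and C/EBP factors, occurred in 1 of the 25 (4%), Herpud1, and in 6 of the 24 (25%), against 0.895% of all windows. No gene of either list held both motifs as searched. The Herpud1 window also holds ATTGG and CCACG with 1 base between them, a spacing outside the search, so a gene without a match may hold another form. The first 3 windows below hold the ER stress element and the last 2 the TTGCATCA element; each window is shown because its gene is either among the most different or, for Hspa5, barely different. Capitals mark the letters fixed by each motif, with CGTGG and ATTGG where it lies on the other strand.
Derl3, chr10:75893148-75893447 (+ strand): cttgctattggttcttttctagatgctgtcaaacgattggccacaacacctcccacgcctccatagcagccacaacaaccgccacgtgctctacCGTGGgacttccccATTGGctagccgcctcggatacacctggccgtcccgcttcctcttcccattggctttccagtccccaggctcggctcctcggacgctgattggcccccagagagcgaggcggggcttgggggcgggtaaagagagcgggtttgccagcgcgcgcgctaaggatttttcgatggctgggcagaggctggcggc
Creld2, chr15:88819396-88819695 (+ strand): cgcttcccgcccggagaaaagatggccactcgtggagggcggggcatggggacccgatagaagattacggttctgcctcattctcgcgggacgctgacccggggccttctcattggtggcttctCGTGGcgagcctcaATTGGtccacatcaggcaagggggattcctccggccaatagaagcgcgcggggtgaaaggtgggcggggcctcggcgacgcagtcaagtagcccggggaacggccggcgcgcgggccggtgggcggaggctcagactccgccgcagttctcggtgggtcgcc
Hspa5, chr2:34771840-34772139 (+ strand): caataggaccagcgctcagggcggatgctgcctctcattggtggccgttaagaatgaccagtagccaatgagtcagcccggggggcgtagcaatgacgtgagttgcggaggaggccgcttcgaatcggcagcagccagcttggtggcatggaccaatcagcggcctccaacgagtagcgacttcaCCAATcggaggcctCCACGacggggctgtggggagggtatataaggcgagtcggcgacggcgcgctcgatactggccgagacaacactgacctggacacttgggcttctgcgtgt
Chac1, chr2:119350992-119351291 (+ strand): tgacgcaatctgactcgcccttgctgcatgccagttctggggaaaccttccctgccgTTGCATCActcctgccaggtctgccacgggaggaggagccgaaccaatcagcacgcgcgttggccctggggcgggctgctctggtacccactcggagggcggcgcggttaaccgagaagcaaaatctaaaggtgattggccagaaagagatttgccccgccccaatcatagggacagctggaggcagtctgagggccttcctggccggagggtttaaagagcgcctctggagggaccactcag
Herpud1, chr8:94386179-94386478 (+ strand): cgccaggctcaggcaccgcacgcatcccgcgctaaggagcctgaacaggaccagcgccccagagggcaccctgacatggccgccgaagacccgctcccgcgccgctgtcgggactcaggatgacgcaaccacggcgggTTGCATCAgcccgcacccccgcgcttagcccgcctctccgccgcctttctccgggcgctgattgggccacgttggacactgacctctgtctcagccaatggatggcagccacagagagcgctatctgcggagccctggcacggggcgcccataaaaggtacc

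Genes that share a motif varied in the size of their difference, and they were not compared with list members without it. Among the 9 with the ER stress element, Derl3 (1.19) and Creld2 (0.61) had large differences, Pdia6 (0.30), Syvn1 (0.28), Dnajc3 (0.14), Calr (0.13) and Hsp90b1 (0.10) small ones that passed, and Hspa5 (0.09) and Canx (-0.00011) did not pass. Of the genes with TTGCATCA, Chac1 (0.60), Atf3 (0.52), Nupr1 (0.42) and Fgf21 (0.13) rose together with Herpud1, Slc7a11 had 0.03 (adjusted p = 0.838), and Vldlr fell by 0.11. A match is a description of letters in the window. Among these genes Calr, Canx, Dnajc3, Hsp90b1, Pdia6, Syvn1, Atf3, Nupr1, Fgf21, Slc7a11 and Vldlr are named for their motif, after their values were seen.

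Translocation and early secretion went the same way. Of 27 signal recognition and translocon genes 18 were higher and 2 lower (median 0.09), and 13 and 0 with the length and GC indices. Ssr4, a subunit of the translocon-associated complex that helps proteins enter the ER (chromosome X, 73787028 to 73790830), was at 12.22 to 14.17 in high-insulin libraries (median 12.75) and at 11.86 to 12.61 in low-insulin libraries (median 12.33). No low-insulin library reached the high-insulin median, and 92 of 94 high-insulin libraries exceeded the low-insulin median (0.55, SE 0.0408, adjusted p = 3.72e-26). Sec61b, a subunit of the channel, rose by 0.55 but by 0.18 with the length and GC indices. Spcs1 of the signal peptidase rose by 0.34 and Rpn2 of the oligosaccharyltransferase by 0.28. Of 30 ER-to-Golgi genes 13 were higher and 3 lower, with a median of 0.03. Tmed3, a cargo receptor of ER-to-Golgi vesicles, rose by 0.49, Kdelr1, which returns ER residents, by 0.22, and the coatomer subunit gene Cope by 0.25, which did not pass with the length and GC indices (0.06).

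Most targets of ATF4 and CHOP were higher in high-insulin islets. Of 28 tested, 24 were higher and 1 lower, with a median of 0.26, and with the length and GC indices 20 were higher and 0 lower (median 0.21). Medians were 0.14 in females and 0.37 in males. With the indices none was called in females alone (0 of 28, median 0.05) and 24 were higher in males alone (median 0.48). Ddit4, an inhibitor of mTORC1 that is also induced by low oxygen (ENSMUSG00000020108, chromosome 10, 59949675 to 59951770), had 9.38 to 11.61 in high-insulin libraries (median 10.48) and 9.03 to 10.57 in low-insulin libraries (median 9.74). Just 1 of 94 low-insulin libraries exceeded the high-insulin median, while 88 of 94 high-insulin libraries exceeded the low-insulin median. Its difference was 0.69 (SE 0.0511, adjusted p = 2.21e-26), or 0.35 with the length and GC indices.

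Chac1, a glutathione-degrading enzyme downstream of CHOP, had a median of 11.95 in high-insulin and 11.33 in low-insulin libraries, with 12 of 94 low-insulin libraries above the high-insulin median. Its rise of 0.60 (SE 0.0777, adjusted p = 1.04e-11) was accompanied by Trib3, a pseudokinase target of CHOP, at 0.59 (SE 0.0848). Ddit3, which encodes CHOP itself, rose by 0.37 (SE 0.0472, adjusted p = 5.17e-12), and Slc3a2, the heavy chain of amino acid exchangers, by 0.28. Atf4 rose less (0.16, adjusted p = 3.32e-07), and it is regulated mostly at translation, which RNA levels do not show. Atf4 was chosen after its values were seen.

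Granule cargo rose unevenly. Of 23 prohormone processing and granule lumen genes, 13 were higher and 2 lower (median 0.11), and 10 and 0 with the length and GC indices. In females alone 5 were higher and 0 lower (median 0.04), where 14.8% of all genes were higher. In males alone 14 were higher and 2 lower (median 0.20), where 24.1% of all genes were higher. Iapp, which encodes the amyloid polypeptide co-secreted with insulin (chromosome 6, 142298423 to 142303961), ran from 18.92 to 20.28 in high-insulin libraries (median 19.42) and from 18.65 to 20.05 in low-insulin libraries (median 19.15). The ranges largely overlap, yet 82 of 94 high-insulin libraries exceeded the low-insulin median (0.30, SE 0.0337, adjusted p = 1.67e-14). Nucb2, the precursor of nesfatin, rose by 0.66 (SE 0.0692, adjusted p = 8.1e-16), by 0.28 in females and 1.09 in males. Vgf, a granin-like precursor, rose by 0.79, and by 0.37 with the length and GC indices.

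The enzymes that process proinsulin differed little. Pcsk1 rose by 0.13 (adjusted p = 0.00883), Pcsk2 by 0.09 (adjusted p = 0.00227) and Cpe by 0.14 (adjusted p = 0.000277) in high-insulin libraries. Pcsk1n, which encodes the Pcsk1 inhibitor proSAAS, stood apart from them with medians of 10.97 in high-insulin and 10.12 in low-insulin libraries (1.08, SE 0.116, adjusted p = 1.57e-15). That value was 0.29 with the length and GC indices and 0.03 in band 4 alone. The granins Chga (0.23) and Chgb (0.27), both chosen after their values were seen, also rose, and Chga had 0.08 without a call when the indices were added. The zinc transporter gene Slc30a8, needed for insulin crystals, did not pass (-0.04, adjusted p = 0.492).

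Most genes of beta cell identity were not called. Of 21 beta cell transcription factors 6 were higher, close to the background share, and 3 lower, below it. Pdx1 (chromosome 5, 147269959 to 147275848), which binds the insulin promoter, ran from 10.24 to 12.13 in high-insulin libraries (median 11.38) and from 10.47 to 12.13 in low-insulin libraries (median 11.28), and did not pass (0.10, SE 0.0511, adjusted p = 0.102). Neurod1 (-0.02, adjusted p = 0.614) and Pax6 (0.01, adjusted p = 0.714), also activators of insulin transcription, had nearly equal medians. Mafa and Nkx2-2 were among those that passed.

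Mafa, the activator restricted to mature mouse beta cells (chromosome 15, 75746843 to 75747922), had 7.12 to 11.90 in high-insulin libraries (median 9.82) and 8.23 to 10.73 in low-insulin libraries (median 9.08). The difference was 0.64 (SE 0.112, adjusted p = 3.17e-07), 0.95 in females and 0.28 in males, where it did not pass (adjusted p = 0.19), and the difference between the sexes passed its own test (adjusted p = 0.0237). With the length and GC indices it was 0.30 and did not pass (adjusted p = 0.0800). Nkx2-2 rose by 0.40 (0.19 with the indices) and Nkx6-1 by 0.12. Isl1, a factor of all endocrine cells, fell by 0.14.

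Maturity genes were called higher more often than all genes, although some did not pass. Of 20 tested, 8 were higher (40%, against 26.3% of all genes) and 1 lower. With the length and GC indices 7 were higher and 0 lower, where 16.9% of all genes were higher. With the indices in females alone 7 were higher (median 0.21), against 4.66% of all genes. In males alone 3 were higher and 1 lower (median 0.03), where 15.2% of all genes were higher. Higher members included the cytochrome oxidase subunit gene Cox6a2 (0.59), the prolactin receptor gene Prlr (0.31), the ER oxidoreductase gene Ero1lb (0.23) and the glucose-6-phosphatase gene G6pc2 (0.20). Ucn3 (0.04, adjusted p = 0.578) and the glucose transporter gene Slc2a2 (0.06, adjusted p = 0.512) did not pass. Of 28 genes of glucose sensing and excitability 8 were higher and 5 lower, near or below the background, and 9 and 3 with the length and GC indices. The potassium channel genes Kcnk16 and Kcnk3 went apart, Kcnk16 at 11.06 and 10.43 (medians of high-insulin and low-insulin libraries; 0.56, SE 0.0606) and Kcnk3 at 9.52 and 10.05 (-0.53, SE 0.0751). Glp1r, the GLP-1 receptor gene, had 0.04 (adjusted p = 0.567), and the ATP-sensitive channel genes Kcnj11 and Abcc8, chosen after their values were seen, 0.04 and 0.06 with adjusted p of 0.353 and 0.261. Adra2a, the receptor through which noradrenaline inhibits secretion, rose by 0.37.

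Genes of the release machinery were called lower at about the background share. Of 22 exocytosis genes 3 were higher and 7 lower (31.8%, against 27.6% of all genes), with a median of -0.03, among them the SNARE genes Stx1a (-0.20, adjusted p = 1.61e-05) and Snap25 (-0.07, adjusted p = 0.025; chosen after its value was seen). With the length and GC indices 6 were higher and 5 lower. Genes that beta cells normally keep silent ("disallowed" genes) had 4 higher and 9 lower of 26 (2 and 10 with the indices), and Ldha, a lactate dehydrogenase subunit, was the largest rise among them (0.32). Of 20 genes linked to beta cell dedifferentiation 8 were higher and 6 lower. Serpina7 (0.72) and Dcx (0.48) rose, and Cd81, a surface protein gene linked to immature beta cells, fell by 0.27. Aldh1a3, the best-known marker of dedifferentiated beta cells, rose by 0.68, by 0.06 in females (adjusted p = 0.725) and 1.40 in males (adjusted p = 1.99e-05), with an adjusted p of 0.000382 for the difference. Its counts were whole in 1.06% of libraries, so reads shared with other sequence make it uncertain.

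Many genes of the other endocrine cells were lower in high-insulin islets. Of 20 alpha cell genes 14 were lower and 3 higher (median -0.18). Gcg, which encodes glucagon (ENSMUSG00000000394, chromosome 2, 62474530 to 62483650), was at 15.79 to 20.14 in high-insulin libraries (median 18.59) and 17.71 to 20.80 in low-insulin libraries (median 19.23). Of the high-insulin libraries 27 of 94 still exceeded the low-insulin median, and 79 of 94 low-insulin libraries exceeded the high-insulin median (-0.75, SE 0.0883, adjusted p = 2.59e-13). The alpha cell transcription factor gene Irx2 (-0.62, SE 0.0645) fell too. The summed alpha list ran from 3239 to 41500 CPM in high-insulin libraries (median 13260) and from 6369 to 54110 CPM in low-insulin libraries (median 21620). The summed delta and PP list went the other way, with medians of 3507 CPM in high-insulin and 3076 CPM in low-insulin libraries.

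Against the direction of the list, Tmem176a (0.27) and Tmem176b (0.25), a neighbouring pair of membrane protein genes, rose, and Gc, the vitamin D binding protein gene, rose by 0.63, by 0.12 in females and 1.22 in males; Gc was chosen after its value was seen. Of 16 delta and PP cell genes 9 were lower and 3 higher (median -0.20). The ghrelin receptor gene Ghsr (-0.57), Nhs (-0.34) and Ptprz1 (-0.45) fell, as did Rbp4 (-0.56) and the delta cell factor Hhex (-0.30), both chosen after their values were seen. The hormone genes themselves did not pass: Sst had 0.05 (adjusted p = 0.71), Ppy -0.10 (adjusted p = 0.486) and Pyy 0.02 (adjusted p = 0.904). With the length and GC indices Sst had -0.35 and Pyy -0.40, and both then passed (adjusted p = 0.0484 and 0.0151). In whole-islet RNA, fewer cells of a type and less RNA per cell cannot be told apart. A larger insulin share also leaves a smaller share of the counts to all else, and its part in these values was not tested. By edgeR, 24.25% of all genes were called lower without Ins1 and Ins2 in the library sizes, against 24.27% with them. Both fits used TMM scaling, which limits the weight of a few abundant genes, so these shares do not test that part.

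**Figure D3:**
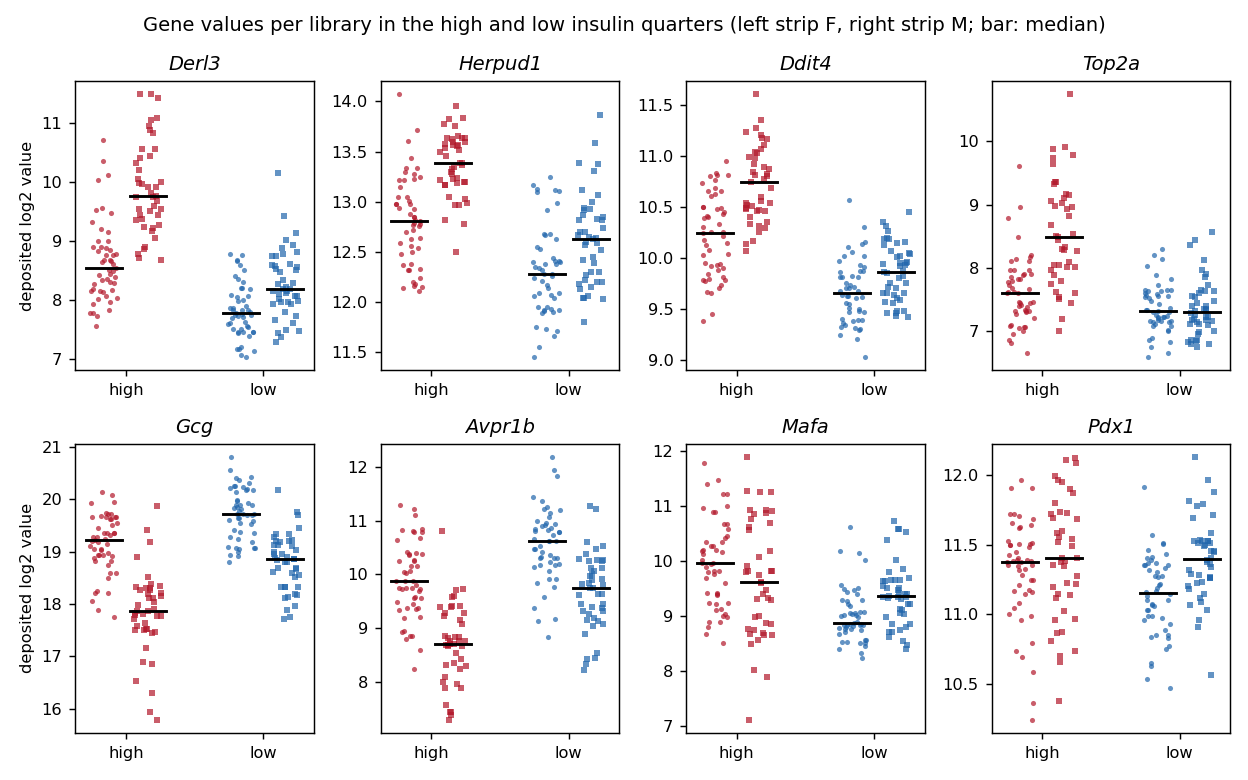
Deposited log2 value (y axis) of 8 genes in each high-insulin (red, left) and low-insulin (blue, right) library, with females as circles and males as squares and a bar at each median. Derl3, Herpud1, Ddit4 and Top2a lie higher and Gcg and Avpr1b lower in the high-insulin group, Mafa differs mainly among females, and Pdx1 overlaps throughout.

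When scores of the alpha list and of the delta and PP list were added as covariates, 22.8% of all genes were called higher and 23.3% lower. The ER list then had 19 higher and 1 lower members and the ATF4 and CHOP list 22 and 1. Derl3 then had 1.06, Ddit4 0.72 and Iapp 0.24, each still past the threshold.

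Genes of the non-endocrine cells varied widely between libraries. Of 32 acinar genes tested 1 was higher and 0 lower, with medians of 0.36 in females and -0.39 in males. With the length and GC indices 7 were lower, and 0 in females alone (median 0.01) but 22 in males alone (median -1.25). Of 23 duct genes 2 were higher and 6 lower, with Krt7 at 0.19 and the bicarbonate transporter gene Slc4a4 at -0.28. Endothelial genes were higher in 12 of 21 cases and lower in 0 (median 0.11), and in 7 with the length and GC indices (median 0.04). In females 5 were higher (median 0.05) and in males 13 (median 0.19). The defining markers had close medians in high-insulin and low-insulin libraries. These were 89.9 and 86.3 CPM for Pecam1, 85.5 and 87.2 for Cdh5, and 109.9 and 112.2 for Kdr. Plvap, which forms the diaphragms of fenestrated capillaries, led the list (0.46, SE 0.0456). Its medians were 11.28 in high-insulin and 10.89 in low-insulin libraries, and 86 of 94 high-insulin libraries exceeded the low-insulin median.

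Stromal and blood cell genes were less uniform. Of 25 stellate and fibroblast genes 10 were higher and 2 lower, with medians of -0.07 in females and 0.30 in males, and 5 were higher with the length and GC indices. The pericyte gene Rgs5 (0.48) and the matrix protein gene Mgp (0.51) led. Macrophage genes were higher in 6 of 24 cases and lower in 0 (median 0.04), near the background, and red blood cell genes in 3 of 5. After adding the length and GC indices 1 macrophage gene and 0 red blood cell genes were called (red blood cell median 0.37 without and 0.16 with the indices). Of 7 lymphocyte genes 3 were lower, including the B cell receptor component gene Cd79a (-0.40). Schwann cell genes were lower in 5 of 12 cases and higher in 1, and of 3 adipocyte genes Lpl was lower (-0.50). With 6 scores of non-endocrine cells as covariates, 21.1% of all genes were called higher and 21.8% lower. The ER list then had 20 higher and 1 lower and the ATF4 and CHOP list 23 and 0.

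Cell division genes were higher with insulin RNA, mainly in males. Of 26 tested, 23 were higher and 2 lower (median 0.25; 0.08 in females and 0.46 in males), and 22 and 1 with the length and GC indices. Top2a, the topoisomerase of dividing cells (ENSMUSG00000020914, chromosome 11, 98992943 to 99024189), ran from 6.66 to 10.74 in high-insulin libraries (median 7.90) and from 6.60 to 8.57 in low-insulin libraries (median 7.32). The upper part of the high-insulin range has no counterpart among low-insulin libraries, while the lower parts coincide. It rose by 0.69 (SE 0.0892, adjusted p = 1e-11), by 0.27 in females and 1.19 in males. Cdk1 (0.44), which drives mitotic entry, Cdc20 (0.37) and Ube2c (0.34), which act in anaphase, and Mki67 (0.59; chosen after its value was seen) rose, all at low levels such as a median of 0.942 CPM in high-insulin and 0.534 CPM in low-insulin libraries for Cdk1. Pcna, chosen in the same way, had -0.05 and did not pass (adjusted p = 0.192).

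Hypoxia targets were higher as well. Of 17 tested, 13 were higher and 0 lower (median 0.24), and 13 and 0 with the length and GC indices (median 0.23). Besides Ddit4, a member of this list too, Ankrd37 rose by 0.53 (SE 0.0519) and P4ha2, a collagen prolyl hydroxylase subunit, by 0.28. Txnip, the thioredoxin-binding inhibitor of glucose uptake that ChREBP induces in high glucose, had medians of 12.35 in high-insulin and 11.80 in low-insulin libraries (0.61, SE 0.0916, adjusted p = 2.71e-09), with 0.20 in females (adjusted p = 0.144) and 1.09 in males. Of the 16 genes of its ChREBP list, Txnip included, 6 were higher (37.5%, against 26.3% of all genes) and 2 lower (12.5%, against 27.6%). Lactogen-responsive genes had 7 of 14 higher (50%) and 0 lower (4 and 0 with the indices). Fatty acid oxidation genes had 11 of 22 higher (50%) and 3 lower (5 and 2 with the indices). With the indices 16.9% of all genes were higher and 15.7% lower. Clock genes had 6 of 18 higher (33.3%) and 4 lower (22.2%). Sterol synthesis genes had 4 of 24 higher (16.7%) and 5 lower (20.8%). The shares of these last lists are near or below the background of 26.3% and 27.6%.

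Interferon and chemokine genes were lower over all libraries, but not in every subset. Of 27 interferon-response genes 14 were lower and 0 higher (median -0.24), and 19 and 0 with the length and GC indices. The RNA sensor gene Ddx58 had 11.29 to 13.86 in high-insulin libraries (median 12.58) and 11.59 to 14.14 in low-insulin libraries (median 12.95). The ranges overlap widely, with 21 of 94 high-insulin libraries above the low-insulin median, and the gene fell by 0.35 (SE 0.0696, adjusted p = 6.39e-06). Oas1a fell by 0.42 and Parp14 by 0.33. In females alone 1 of the 27 was lower, below the 14.1% of all genes, and in males 12. Without band 4 there were 7, where 26.4% of all genes were lower, and with the Rn18s-rs5 level as covariate 4, where 16.7% were, so both counts are at the background. Of 17 NF-kB and isolation stress genes 12 were lower and 0 higher (median -0.18), among them the chemokine genes Cxcl10 (-0.58) and Cxcl2 (-0.32) and Nfkb2 (-0.24). In females alone 3 of the 17 were lower, where 14.1% of all genes were, and in band 4 alone 1, where 5.03% were. Both counts are near the background, while in males 9 were lower, where 25.2% of all genes were. Of 18 immediate early genes 8 were higher and 0 lower (4 and 0 with the indices), but Junb (0.68) and Ier2 (0.43) were at 0.16 and 0.11 and without a call once the length and GC indices were included.

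Respiratory chain and ribosomal protein genes were higher, and most of their calls were lost with the length and GC indices as covariates. Their median transcript lengths were 1363 and 964 bases, against 2938 over all genes tested. The length index is built from the values of 1486 genes under 1000 bases. Any member of these lists under that length is part of it, so the loss of calls is partly built in. Of 33 nuclear-encoded oxidative phosphorylation genes 24 were higher and 1 lower (median 0.11), and with the indices 5 and 3 (median -0.01). Of 43 cytosolic ribosomal protein genes 25 were higher and 2 lower (median 0.16), and with the indices 2 and 5 (median -0.03). Ndufa1 of complex I (0.58), Uqcrq of complex III (0.58) and Ndufa2 (0.46) were still called with 0.29, 0.20 and 0.13, and the ribosomal stalk gene Rplp1 (0.57) with 0.15, whereas Rps28 (0.49) had 0.09 and was not. Of the 13 mRNAs of mitochondrial DNA 5 were lower (38.5%, against 27.6% of all genes) and 1, mt-Atp8, was higher (0.68), with mt-Nd6 at -0.23. With the indices 0 were lower and 1 was higher, and these mRNAs are short too, with a median of 784 bases. In females alone 0 were lower and in males alone 6.

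**Figure D4:**
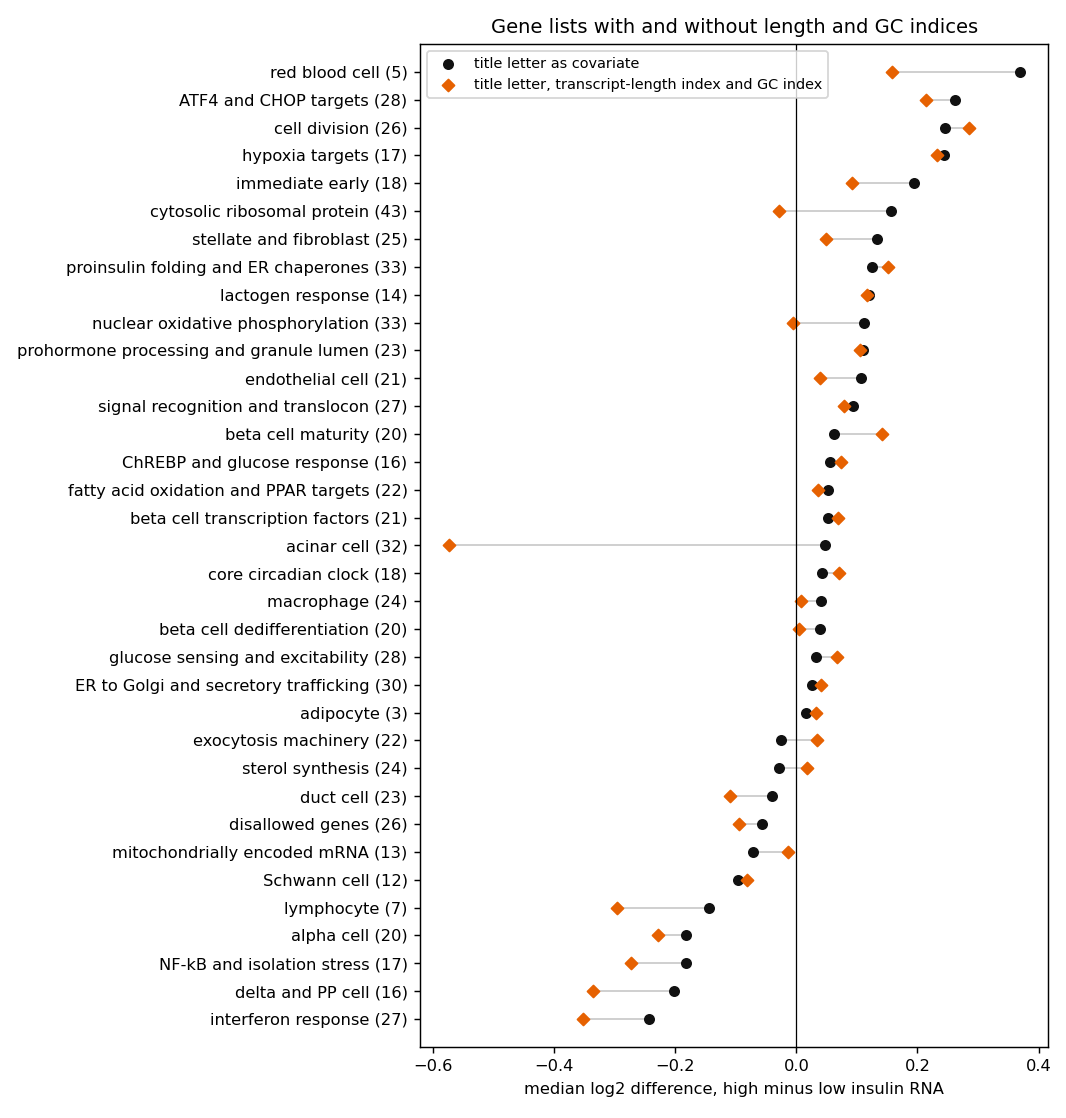
Median log2 difference, high-insulin minus low-insulin libraries (x axis), of each gene list (y axis, number of genes tested in brackets), with the title letter as covariate (black) and with the length and GC indices added (orange). The ER, ATF4 and CHOP, cell division and hypoxia lists stay above 0 and the alpha, delta and PP, interferon and NF-kB lists below it. The ribosomal and oxidative phosphorylation lists move to about 0, but their short members are part of the length index.

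Among the 12 genes with the largest rise, several have uncertain counts. Hspa1a (1.09) and Hspa1b (1.05), a near-identical pair encoding the inducible cytosolic Hsp70, had medians of 10.61 and 10.68 in high-insulin and 9.43 and 9.43 in low-insulin libraries. Their counts were never whole, so their sum is better founded than either value. The same holds for the histone gene Hist2h2aa2 (1.17), Pabpc1l2a-ps (1.15) and Rpl27-ps3 (0.94), which share sequence with near-identical genes or retrocopies and were whole in 0% of libraries. Rn7s1 (0.95) and Rn7s2 (1.00), copies of the 7SL RNA of the signal recognition particle, had 0.19 and 0.30 with the length and GC indices and no call, and Jund (0.91) 0.33. Lars2, the mitochondrial leucyl-tRNA synthetase gene, rose by 1.03 and had 0.25 in band 4, and 0.22 without a call (adjusted p = 0.0988) when the Rn18s-rs5 level was a covariate. Dapl1 was at 8.90 and 7.92 (medians of high-insulin and low-insulin libraries) and rose by 1.04, by 0.44 in females and 1.75 in males.

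The 12 genes that fell most include receptor, peptide and imprinted genes. Avpr1b, the vasopressin V1b receptor gene (ENSMUSG00000026432, chromosome 1, 131599239 to 131612000), had 7.29 to 11.29 in high-insulin libraries (median 9.38) and 8.21 to 12.19 in low-insulin libraries (median 10.21), with 19 of 94 high-insulin libraries above the low-insulin median (-0.81, SE 0.103, adjusted p = 9.06e-12). Besides Gcg and Irx2, the others were Edn3 (-0.70), the endothelin 3 gene, Vip (-0.69), which encodes vasoactive intestinal peptide, Mctp2 (-0.65), Sertm1 (-0.63), the semaphorin gene Sema3e (-0.62) and the long noncoding RNA Miat (-0.62). Peg10 (-0.75), Mest (-0.68) and Dlk1 (-0.65) are imprinted genes, expressed from the paternal allele. Mest counts were whole in 0% of libraries. With scores of the alpha and of the delta and PP list as covariates these 12 ran from -0.26 for Irx2 to -0.61 for Vip, but Gcg, Irx2 and Peg10 are themselves in the alpha list, so the covariate holds their own values.

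The 3 genes with the smallest p-values in each direction were Dpm3, Selm and Rabac1 upward and Ahctf1, Rbbp6 and Rbm6 downward. Dpm3, a subunit of dolichol-phosphate mannose synthase for glycosylation in the ER (chromosome 3, 89259358 to 89267079), had 8.39 to 10.07 in high-insulin libraries (median 9.29) and 8.13 to 9.24 in low-insulin libraries (median 8.65), and 0 of 94 low-insulin libraries reached the high-insulin median (0.66, SE 0.0378, adjusted p = 2.92e-37). Selm, an ER selenoprotein, rose by 0.58 and Rabac1, a prenylated Rab acceptor of the Golgi, by 0.61, with 0.28 and 0.21 under the length and GC indices. On the other side Ahctf1, a nucleoporin-related gene (-0.24), and the RNA-binding or processing genes Rbbp6 (-0.25) and Rbm6 (-0.23) fell, each in nearly all libraries: 94, 92 and 92 of 94 low-insulin libraries exceeded the high-insulin median.

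Females and males differed in how much went with insulin. The interaction of group with letter passed for 2790 genes (16.5%), and 91.5% of them had the larger difference in males, with opposite signs in 1015. Since the insulin step itself was wider in males, slopes per log2 unit of insulin RNA over all libraries were compared too, as an alternative chosen after seeing the data. They differed for 1995 genes, 1611 of them among the 2790, and 73.3% had the steeper slope in males. Pappa2, a protease of IGF-binding proteins, had -0.22 in females and 1.02 in males (adjusted p = 1.43e-07), and per log2 unit of insulin -0.21 and 1.01. Rhd (0.22 and 0.89) and Ssr4 (0.31 and 0.83) had the smaller value in females with the same sign, and Srsf2 (-0.01 and -0.42) and Tmco4 (-0.03 and -0.54) had values near 0 in females and fell in males. Per log2 unit of insulin, the difference was also past the threshold for Top2a (0.46 in females and 1.12 in males), Nucb2 (0.36 and 1.12) and Mafa (1.22 and 0.37), and not for Gcg (-0.87 and -1.11, adjusted p = 0.427) or Dlk1 (-0.46 and -1.17, adjusted p = 0.0823).

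**Figure D5:**
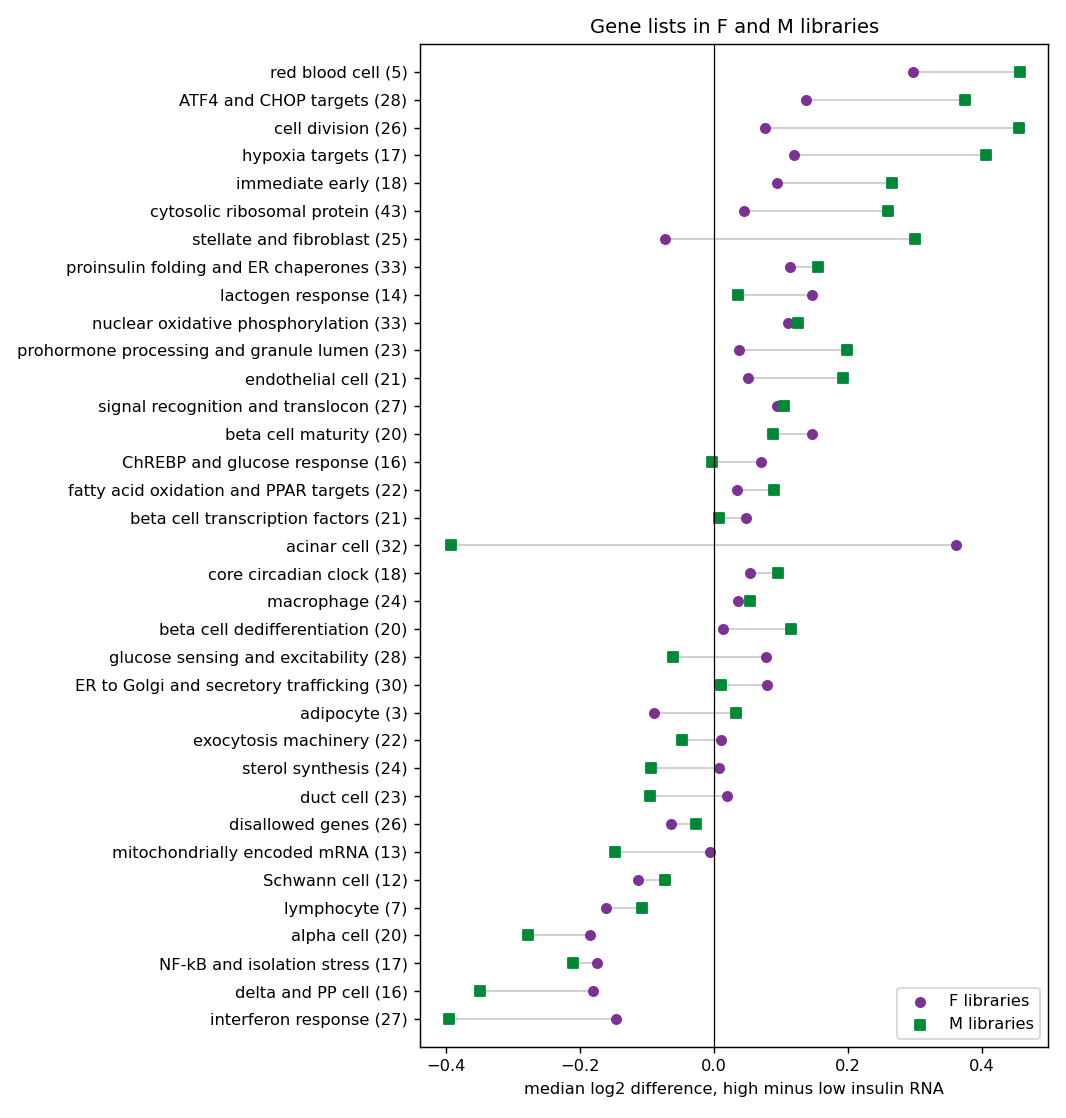
Median log2 difference, high-insulin minus low-insulin libraries (x axis), of each gene list (y axis, number of genes tested in brackets) in females (circles) and males (squares). Cell division, hypoxia, ATF4 and CHOP and ribosomal lists lie farther from 0 in males, and acinar and stellate lists lie on opposite sides of 0.

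The 190 libraries between the groups, which the comparison did not use, were examined for a slope on the insulin score. Few genes passed, 1.35% with a positive and 1.66% with a negative slope, over a much narrower range of insulin. Of the genes described above, Ddit4 (0.36 log2 units per unit of score, adjusted p = 0.000883), Slc3a2 (0.21, adjusted p = 0.0091), Derl3 (0.46, adjusted p = 0.0391), Ssr4 (0.19, adjusted p = 0.0212), Tmed3 (0.27, adjusted p = 0.0149), Kcnk16 (0.33, adjusted p = 0.0216) and Dapl1 (0.55, adjusted p = 0.0167) rose along the score. Gcg (-0.44, adjusted p = 0.0482) and Sema3e (-0.41, adjusted p = 0.0215) fell. By list, 3 of 28 ATF4 and CHOP targets passed upward, 3 of 20 alpha cell genes downward, and 1 of 33 ER genes upward.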

How the data were processed

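RNA of 378 mouse islet libraries was measured by sequencing of poly(A)-selected RNA, per the labels' protocols. The authors deposited expected counts per gene (22180 genes, 67.7% of values whole with a tolerance of 0) and variance-stabilised log2 values. The submitters' processing notes list GRCm38 and DESeq2; neither an aligner nor a counting tool is named in the labels or headers. The deposited log2 values appear to have been adjusted for stretches of mouse numbers, a step that no source used here describes.

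The insulin score was computed from the deposited log2 values. Genes were kept by filterByExpr on rounded counts (edgeR 4.0.16, R 4.3.3). The deposited log2 values were fitted with limma 3.58.1 (letter as covariate, Benjamini-Hochberg adjustment over all genes, threshold 0.05), which gives every adjusted p printed unless another test is named, with differences coded high minus low. A difference is a log2 value on the deposited scale, which understates changes at low counts. CPM are TMM-scaled counts. Transcript length and GC content came from the longest transcript in GENCODE (99.6% of tested genes). Short means under 1000 bases and long 5000 or more, and the GC index contrasts the upper and lower GC quartile, both as medians without insulin, acinar and duct genes. Each library is a different mouse, so p-values measure the spread between mice. The scripts were tested on simulated data. The members, the 35 gene lists and the tests were chosen with earlier results of these data known. The text names up to 12 genes of largest difference per direction (CPM averaging 2 or more, one sign in both letters and all 4 number bands), up to 4 members of each list and 3 per direction with the smallest p, 5 for the interaction, and preset genes; of 189 such genes the text names a part, and others are marked as chosen after their values were seen. Alternatives comprised edgeR and DESeq2 1.42.0 on counts, other size factors, filters, covariates, scores, group sizes and subsets of libraries; the length and GC indices, the Rn18s-rs5 level and leaving out band 4 were chosen after seeing the data (Python 3.11.15).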

Additional observations from a re-analysis of the deposited data

Results flagged for a closer look

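For 57 named genes the difference between high-insulin and low-insulin libraries was unlike in females and males by the interaction test (limma, adjusted p below 0.05). Values are the difference in females minus that in males, in log2 units, and the insulin step was wider in males. What sets the sexes apart was not tested.

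In the secretory pathway the value was -0.80 for Derl3, -0.71 for Fkbp11, -0.52 for Ssr4, -0.26 for Spcs1, -0.24 for Rpn2, -0.56 for Tmed3, -0.16 for Kdelr1 and -0.25 for Dpm3. Among stress and hypoxia genes it was -0.32 for Ddit4, -0.27 for Ddit3, -0.67 for Pycr1, -0.44 for Ankrd37, -0.34 for P4ha2, -0.43 for Ldha and -0.89 for Txnip. Granule genes had -0.81 for Nucb2, -0.50 for Chgb and -0.31 for Cpe, and Stx1a of the release machinery had 0.41. Cell division genes had -0.92 for Top2a, -1.01 for Mki67, -0.61 for Cdk1, -0.55 for Cdc20, -0.38 for Ube2c and -0.58 for E2f1.

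Among beta cell genes, Mafa had 0.67 and Slc2a2 0.41, both with the larger value in females, Kcnk16 had -0.38 and Kcnk3 0.54. The dedifferentiation genes Aldh1a3, Serpina7 and Dcx had -1.34, -1.07 and -0.57. In genes of other endocrine cells the value was 0.34 for Irx2, 0.41 for Ghsr, 0.57 for Rbp4, 0.93 for Ppy, 0.68 for Pyy, -1.10 for Gc, -0.24 for Tmem176a and -0.19 for Tmem176b.

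Of the remaining genes, Dlk1 had 1.02, Dapl1 -1.32, Gabra4 -0.79, Pappa2 -1.24, Rhd -0.67, Srsf2 0.41, Tmco4 0.50 and Rbbp6 0.18. Stromal and blood cell genes had -0.65 for Rgs5, -0.58 for Mgp, 0.42 for Cd79a, 0.64 for Lpl and 0.23 for the duct gene Slc4a4. Ribosomal and respiratory genes had -0.28 for Rplp1, -0.24 for Rps28, -0.41 for Ndufa1 and 0.23 for mt-Nd6.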

How the results depend on the processing

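The letter as covariate gave 26.3% of genes higher and 27.6% lower in high-insulin libraries, and the counts behind these shares changed by over 1.5 times under the following settings. With fewer libraries, females alone gave 14.8% higher and 14.1% lower, band 1 gave 12.96% higher and 11.94% lower, band 2 gave 10.03% higher and 8.65% lower, band 4 gave 5.96% higher and 5.03% lower, and band 3 gave 17.83% lower. The length and GC indices gave 16.9% higher and 15.7% lower, the Rn18s-rs5 level 16.5% higher and 16.67% lower, and the slope over the middle 190 libraries 1.35% positive and 1.66% negative; the cause of these 3 shifts was not tested. Without band 4, the count of interferon genes that fell was 7 in place of 14.

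No named gene gained or lost its call, and no called one changed direction, with the number band, the total count or the acinar score as covariate or without a filter on low counts. With edgeR on counts with letter and band 2 lost the call and 3 gained it, with DESeq2 1 and 3. With the sign unchanged, the call was lost for 16 with the length and GC indices, 16 with the Rn18s-rs5 level, 35 in females alone, 45 in band 4 alone and 99 over the middle libraries. The sign turned over the middle libraries for Aass (-0.11), Calr (-0.0021), Dnajc3 (-0.0007), Hsp90b1 (-0.065), Isl1 (0.015), Oas1a (0.033), Pcsk1 (-0.039), Pcsk2 (-0.014) and Vldlr (0.0069). With the length and GC indices it turned for Atf6 (0.037), Canx (0.052), Pyy (-0.40), Sst (-0.35) and Vldlr (0.038), and with the alpha and delta/PP scores for Ppy (0.23). It turned in females for Pappa2 (-0.22), in band 3 for Dnajc3 (-0.056) and Hsp90b1 (-0.051), and in band 4 for Chga (-0.10), Ptprz1 (0.076), Pyy (-0.62), Snap25 (0.015) and mt-Nd6 (0.019). Scores from the counts gave groups that shared 87 high-insulin and 86 low-insulin libraries with those used. No paired analysis was possible because mouse numbers are unique to a library and females and males share none. Depth limits the genes near 1 CPM most, where the deposited scale compresses differences.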

Other observations

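Several genes outside the lists, chosen after their values were seen, differed as much as the list members. Fkbp11, an ER member of the FK506-binding protein family, was at 8.86 to 12.35 log2 units in high-insulin libraries (median 10.24) and at 8.66 to 10.48 in low-insulin libraries (median 9.51). Its difference of 0.85 (SE 0.0717, limma adjusted p = 6.62e-22) was 0.67 with the length and GC indices, and 84 of 94 high-insulin libraries exceeded the low-insulin median. Gabra4, a GABA-A receptor subunit gene, had medians of 8.68 in high-insulin and 7.97 in low-insulin libraries (0.82, SE 0.108, adjusted p = 2.32e-11), and 0.91 with the indices. E2f1, a transcription factor gene of the G1 to S transition, had 8.51 and 7.81 (0.71, SE 0.0592, adjusted p = 3.39e-22).

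Metabolic genes were among them too. Pycr1, an enzyme of proline synthesis, rose by 0.69 (SE 0.0712, adjusted p = 1.53e-16), with 0.39 in females and 1.05 in males. Dio1, a deiodinase that activates thyroid hormone, rose by 0.73 (SE 0.123), and Aass, which degrades lysine, by 0.79 (SE 0.129). Aass ranged from 5.81 to 10.39 in high-insulin libraries and from 5.88 to 11.03 in low-insulin libraries, so its ranges coincide although 73 of 94 high-insulin libraries exceeded the low-insulin median.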
